A study of Homo sapiens with 3 samples.

Results

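The S100 calcium-binding proteins are described here by 10 genes, S100A2, S100A3, S100A4, S100A6, S100A10, S100A11, S100A13, S100A14, S100A16 and S100P. They were found by gene symbol in the platform's annotation, which gave 13 probe sets of the 54675 on the array, and they make up 10 of the 19775 genes that had a probe set with 1 symbol. The 3 short-oligonucleotide arrays measured total RNA of a cell line that the labels call HepG2, which derives from a human liver tumour. The cells had been stably transfected with an Hsp27 ORF vector (meant to raise the small heat shock protein Hsp27), with an Hsp27 shRNA vector (meant to lower it; the sample is titled a siRNA) or with a control vector titled EGFP-NC. Each group had 1 array, so no difference below has a replicate check, no test was possible, and the values describe these arrays. Whether each line was 1 clone or a pool is not given in the sources used here.

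S100 proteins are small, acidic proteins with a pair of EF-hand loops that bind calcium. Most work as dimers: calcium opens a hydrophobic face with which they bind annexins, cytoskeletal proteins and other targets inside the cell. Several are also released and act through receptors such as AGER (RAGE) and TLR4. Most S100 genes lie in a cluster on the long arm of chromosome 1, next to genes of skin differentiation, and many are read as tumour or lineage markers.

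HSPB1, the gene of Hsp27, had log2 signals of 13.11 (array labelled ORF), 13.03 (array labelled shRNA) and 13.25 (array labelled control). The array labelled ORF was thus lower than the array labelled control, against its label (log2 ratio -0.14). The array labelled shRNA was lower too, in the direction of its label (log2 ratio -0.22). Genes with a mean log2 signal of at least 13, as HSPB1 has, were slightly lower than control as well, with medians of -0.06 for ORF and -0.07 for shRNA. After loess centring, which removes such a trend, the ratios of HSPB1 were -0.09 and -0.17. The probe-set noise SDs defined below were 0.080 and 0.12 for it. Whether the HSPB1 probe set also reads the transfected ORF was not tested. All directions below rest on the labels alone. Markers did not bear out the liver label: of 7 hepatocyte genes, 0 had a mean above the floor, a log2 signal of 5.93 that is the pooled median of all probe sets. Epithelial genes were above it in 4 of 6 cases and mesenchymal or fibroblast genes in 6 of 7. Leukocyte genes were above it in 0 of 6 cases. Summed linear signals of the epithelial genes were 29145 on the array labelled ORF, 30297 on that labelled shRNA and 36343 on that labelled control, those of the mesenchymal genes 26762, 29794 and 28876, and those of the leukocyte genes 208, 169 and 171. Single expressed markers differed by more: KRT8, an epithelial keratin, was 1.78-fold lower with ORF and 1.49-fold lower with shRNA than with control. With shRNA, DCN (decorin) was 1.87-fold lower and COL1A1 (a collagen chain) 1.74-fold higher than with control (log2 ratios -0.90 and 0.80). They and KRT8 were picked after their values were seen. Both folds are from the brightest probe set, and no other probe set of DCN or COL1A1 reached 1.5-fold. Those above the floor on each array gave from -0.58 to -0.48 for DCN, and 0.53 and 0.15 for COL1A1. Probe sets of COL1A1 above the floor with control only gave -0.08 and -0.03. The 3 arrays had 2% trimmed means of 500.1 each, and the 3′ to 5′ signal ratio of ACTB was 2.40, 2.23 and 2.70 in the same order. The part of these differences in the results below was not tested.

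Each of the 10 S100 genes was above the floor on each array. The list was drawn up with earlier results of these arrays known, so this describes the list and not the family. Of the 10 S100 genes outside it, 2 were above the floor on any array. A probe set's brightness also depends on its probes, so signals of different genes are given as ranks within an array and not as amounts of RNA. S100A4 (metastasin, which binds nonmuscle myosin and is known for its link to motility and metastasis) read 14.55 on the array labelled ORF, 14.58 on that labelled shRNA and 14.77 on that labelled control. Its probe set stood above 99.7% of all probe sets on each array, and the array labelled control was the highest. S100A6 (calcyclin, a partner of CACYBP) read 14.61, 14.36 and 14.50 in the same order, at the 99.8th, 99.6th and 99.6th percentile. Here the array labelled ORF was the highest and that labelled shRNA the lowest.

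S100A10 (p11, the light chain that joins annexin A2 into a tetramer at the plasma membrane and has lost calcium binding) read 13.96 with ORF, 14.03 with shRNA and 14.38 with control, at the 99.3rd, 99.3rd and 99.5th percentile. S100A11 (calgizzarin, a partner of annexin A1) read 13.96, 13.87 and 13.80, a difference between the highest and lowest array of 0.16. RefSeq lists 10 pseudogenes of S100A11, and whether its probe set also reads them was not tested, so its values are uncertain. S100A16, a widely expressed member, read 13.56 with ORF, 13.27 with shRNA and 13.41 with control. These 5 genes form the brightest tier, with a mean log2 signal of at least 13.

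S100A13 (a carrier in the release of FGF1 and interleukin 1 alpha without a signal peptide) read 12.45 on the array labelled ORF, 11.99 on that labelled shRNA and 12.33 on that labelled control. S100P, first found in placenta and known from pancreatic and other carcinomas, read 12.08 with ORF, 11.58 with shRNA and 12.18 with control. For both genes the array labelled shRNA stood apart as the lowest. S100A2, a member of basal and squamous epithelium, read 11.47 with ORF, 11.07 with shRNA and 11.14 with control, so the array labelled ORF was the one that stood higher. These 3 genes lay between the 91.5th and the 96.7th percentile of their arrays.

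The dimmest members were S100A3 and S100A14, both below the pooled 75th percentile of 8.63. S100A3, a cysteine-rich protein best known from the hair cuticle, read 8.05 with ORF, 7.57 with shRNA and 8.0 with control. S100A14, an epithelial member, read 6.81 with ORF, 6.42 with shRNA and 6.01 with control, from the 59.3rd to the 51.2nd percentile. Its value on the array labelled control was thus only just above the floor.

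**Figure D1:**
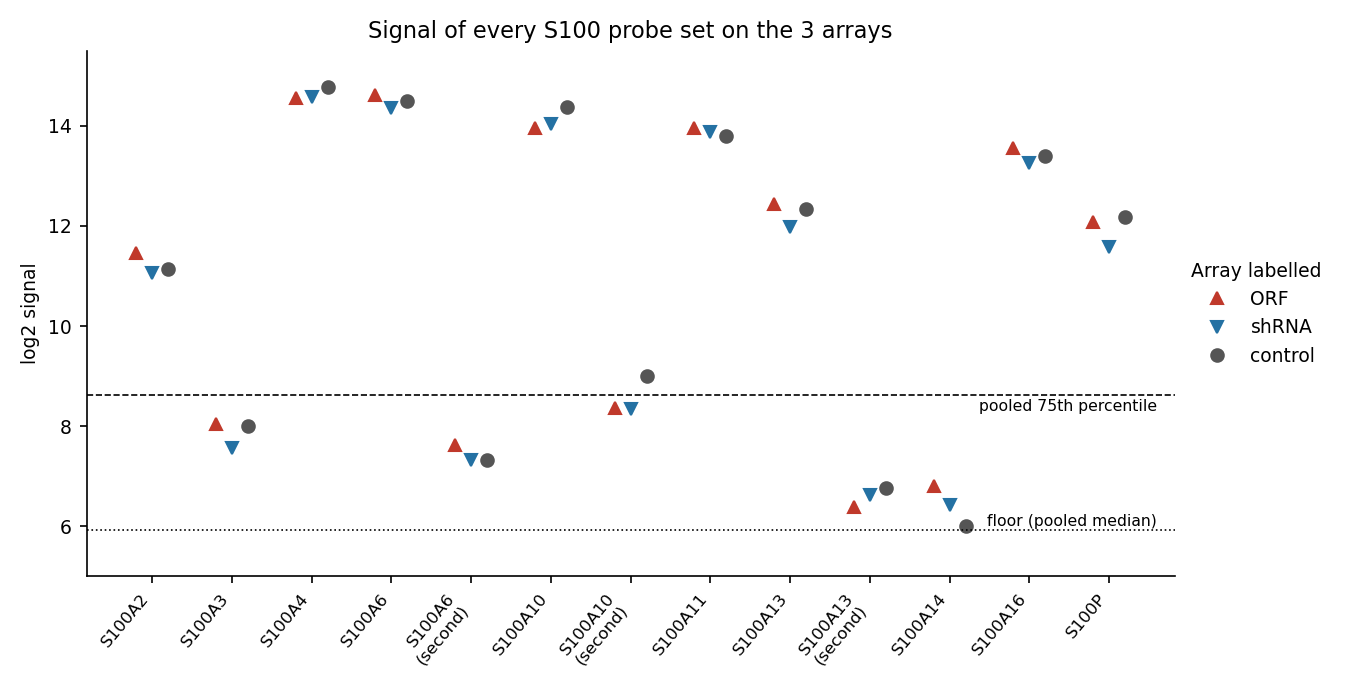
Log2 signal (vertical axis) of the 13 S100 probe sets on the arrays labelled ORF (red), shRNA (blue) and control (grey), 1 point per array; "second" marks the dimmer probe set of a gene. The dotted line is the floor of 5.93 and the dashed line the pooled 75th percentile of 8.63; S100A4 and S100A6 are at the top and S100A14 lies nearest the floor.

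Of the 10 genes, 3 had a second, far dimmer probe set. That of S100A10 read 8.36 with ORF, 8.34 with shRNA and 9.01 with control, so the array labelled control was again the highest. That of S100A6 read 7.63, 7.32 and 7.32, with the array labelled ORF again the highest. The second probe set of S100A13 read 6.38 with ORF, 6.64 with shRNA and 6.77 with control, an order unlike that of the first. Its ratios of -0.39, -0.14 and -0.25 (ORF against control, shRNA against control, ORF against shRNA) were smaller than their noise SDs of 0.42, 0.43 and 0.43. This noise SD is the spread for a single probe set, taken from the disagreement in log2 ratio between probe sets of 1 gene at similar signal. A typical difference within a pair is larger. The noise SD covers differences between probe sets on the same arrays. It leaves out variation between cultures and any labelling, hybridisation or scaling effect that the probe sets of an array share.

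The comparison of ORF with control addresses a vector intended to increase Hsp27. A gene is called where it was at least 1.5-fold different. S100A14 was 1.74-fold higher on the array labelled ORF (log2 ratio 0.80, noise SD 0.40) and was the only member called. No member was called lower. Over all 12664 measured genes, those above the floor on at least 1 array, 3.04% were called higher and 2.82% lower, so 1 of 10 is a count too small to set beside that background. Among the 3951 genes of similar signal, between the floor and the 75th percentile, 128 had a ratio as high as S100A14 or higher.

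Below the threshold, S100A2 was higher by 0.33 (noise SD 0.11) and S100A10 had a log2 ratio of -0.42 (noise SD 0.080), the largest of the members in units of its noise SD, at 5.25. The second probe set of S100A10 gave -0.65 (noise SD 0.24), 1.57-fold lower. S100A4 had a ratio of -0.23 and S100P one of -0.10. S100A11, S100A16, S100A13, S100A6 and S100A3 had ratios of 0.16, 0.15, 0.12, 0.11 and 0.04. That of S100A6 depended on the scaling, at 0.23 after quantile normalization and 0.21 after loess centring. In all, 7 of 10 ratios were above 0, where 49.7% of the 11261 genes above the floor on every array were. The median over the members was 0.11, against 0.00 over all measured genes.

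S100A10 was low for a gene of its brightness. Among the 690 genes with a mean log2 signal of at least 13, a limit set after its values were seen, none had a lower ratio of ORF to control. Bright genes as a whole were slightly lower than control: the median of these 690 was -0.06 for ORF and -0.07 for shRNA. Of the 690, 173 had a ratio above 0 for ORF and 198 for shRNA. After loess centring, which removes such a trend, the ratio of S100A10 was -0.34 for ORF and -0.25 for shRNA, and 3 genes including it were as low for ORF. S100A4 shrank to -0.13 and -0.07 after the same centring.

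The comparison of shRNA with control addresses a vector intended to decrease Hsp27. S100P was 1.52-fold lower on the array labelled shRNA (log2 ratio -0.60, noise SD 0.14), just past the threshold, and no other member was called in either direction. Of all measured genes, 3.59% were called higher and 3.3% lower. Among the 7159 genes between the 75th percentile and a log2 signal of 13, 85 including S100P had a ratio as low.

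The next lowest were S100A3 at -0.43 (noise SD 0.32), S100A10 at -0.35 (noise SD 0.12) and S100A13 at -0.34 (noise SD 0.14). The second probe set of S100A10 gave -0.67 (noise SD 0.27), 1.59-fold lower. S100A4, S100A6, S100A16 and S100A2 had ratios of -0.19, -0.14, -0.14 and -0.07. S100A14 was higher by 0.41, less than its noise SD of 0.43, and S100A11 by 0.07. Thus 2 of 10 ratios were above 0, where 47.5% of genes above the floor on every array were. Of the 690 genes with a mean log2 signal of at least 13, 198 were, so bright genes leaned lower too. The members' median was -0.17, against -0.01 over all measured genes. After quantile normalization S100A4 and S100A6 turned to 0.01 each. Both of these comparisons use the same control array, so their ratios are not independent.

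**Figure D2:**
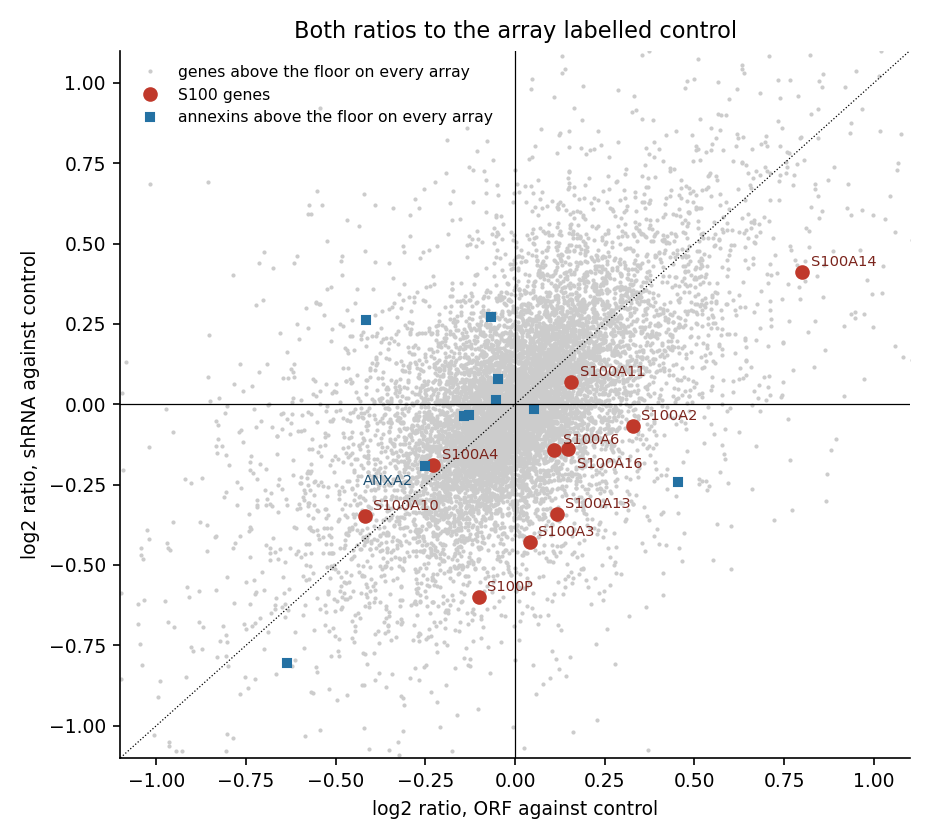
Each point is a gene, with its log2 ratio of ORF to control on the horizontal and of shRNA to control on the vertical axis; grey points are genes above the floor on every array, red points the 10 S100 genes, blue squares annexins, and the dotted line marks equal ratios. Most S100 genes lie below that line; S100A10 and S100A4 lie near it on the negative side with ANXA2. Both axes use the same control array.

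Set directly against each other, the arrays labelled ORF and shRNA differed in 1 direction for most members. The log2 ratio of ORF to shRNA was 0.50 for S100P (noise SD 0.12), 0.47 for S100A3 (0.28), 0.46 for S100A13 (0.12), 0.40 for S100A2 (0.15) and 0.39 for S100A14 (0.40). S100A16 followed with 0.29 and S100A6 with 0.25 (noise SD 0.083 each). S100A11 had 0.09, S100A4 -0.04 and S100A10 -0.07. Of these, 5 ratios were more than 2 noise SDs from 0, namely those of S100P, S100A13, S100A16, S100A6 and S100A2, all above 0. Of the genes above the floor on every array, 10% were more than 2 noise SDs from 0 and 4.91% more than 2 above it. With the median over its probe sets the ratio of S100A13 was 0.10. In the comparisons with control fewer members were more than 2 noise SDs from 0: 3 of 10 for ORF and 3 of 10 for shRNA. No share over all genes was taken for those 2 comparisons.

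No member reached 1.5-fold in this comparison, where 2.64% of measured genes were called higher and 2.68% lower. In sign, 8 of 10 members were above 0, against 52.8% of genes above the floor on every array, and the median was 0.34, against 0.01 over all measured genes. The members share a family and mostly a chromosome region and were listed with earlier results known, so this is a description of the list. Of the 690 brightest genes, 5 had a ratio as high as S100A16 and 8 one as high as S100A6, themselves included. After quantile normalization these counts were 4 and 14, and with a limit of 12 in place of 13 they were 26 and 39 of 1652.

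**Figure D3:**
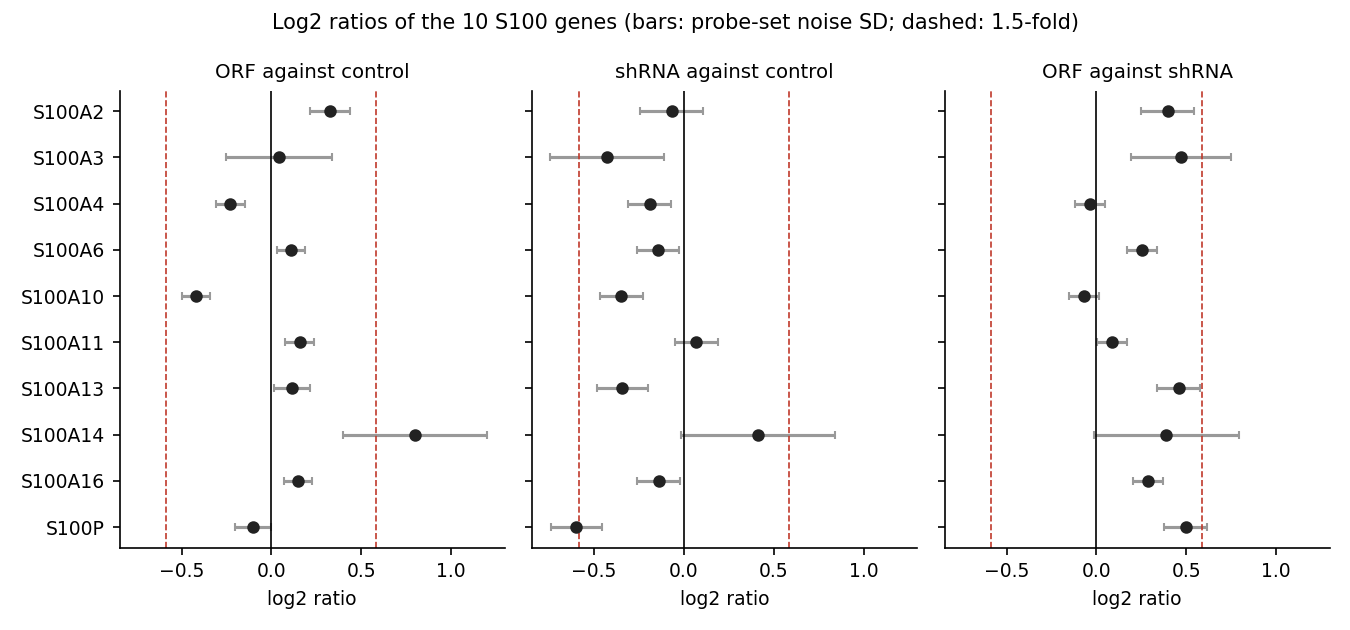
Log2 ratio (horizontal axis) of each S100 gene in the 3 comparisons. Points are the brightest probe set of the gene and dashed lines 1.5-fold. Bars are the probe-set noise SD, which leaves out variation between cultures and effects shared by a whole array. S100A14 passes the line for ORF against control and S100P for shRNA against control; for ORF against shRNA, 8 of 10 points lie right of 0 and none passes the line.

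By the order of the 3 arrays, the members fell into a few patterns. In S100A2, S100A3, S100A6, S100A13 and S100A16 the array labelled ORF was the highest and that labelled shRNA the lowest, with control between them. That order held for 5 of 10 members and for 16% of genes above the floor on every array. It was lost for S100A6 after quantile normalization, for S100A13 with the median over probe sets and for S100A3 with a floor at the 75th percentile, each of which left 4 of 10. In S100A3 the step from ORF to control (0.04, noise SD 0.30) and in S100A2 that from shRNA to control (-0.07, noise SD 0.17) were below the noise SD. In S100A11 and S100A14 the array labelled control was the lowest, with ORF the highest. In S100A4 and S100A10 the array labelled control was the highest and ORF the lowest. In S100P control was the highest and shRNA the lowest. The ratios of ORF to shRNA of S100A4 (-0.04) and S100A10 (-0.07) were below their noise SD of 0.083. So were those of shRNA to control of S100A11 (0.07, noise SD 0.12) and S100A14 (0.41, noise SD 0.43), and of ORF to shRNA of S100A14 (0.39, noise SD 0.40). At the deposited scaling 0 members were highest on the array labelled shRNA, which was the highest for 32.4% of genes above the floor on every array; after quantile normalization 1 was, S100A4.

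S100A14 had the widest range of the members, 0.80 between arrays. Among the 7849 genes with a mean signal at or above the 75th percentile, the 5 nearest to it in the plane of both ratios to control were CA12 (a membrane carbonic anhydrase), FUCA1, CHDH, HES1 and SQOR. Their distances were 0.03, 0.04, 0.05, 0.07 and 0.09 on the log2 scale, over 3 arrays that share 1 control. These distances are far below the noise SDs of S100A14 (0.40 and 0.43 in these comparisons), so which genes came nearest, and their order, is not resolved. CA12 read 11.03 with ORF, 10.67 with shRNA and 10.24 with control.

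Promoters of 3 members, picked after their values were seen, are shown for their make-up: S100P and S100A14, which were called, and S100A10. Sequences are RefSeq's for GRCh38.p14, 5′ to 3′ on the gene's strand, from 250 bases before to 50 after the start. Capitals mark matches, on either strand, to a TATA box (letters TATAAA), a GC box (letters GGGCGG) or an AP-1 motif (letters TGANTCA); no matches overlap in these promoters. S100P lies at chr4:6693628-6693927 on the plus strand, S100A14 at chr1:153616276-153616575 and S100A10 at chr1:151993810-151994109, both on the minus strand.
S100P: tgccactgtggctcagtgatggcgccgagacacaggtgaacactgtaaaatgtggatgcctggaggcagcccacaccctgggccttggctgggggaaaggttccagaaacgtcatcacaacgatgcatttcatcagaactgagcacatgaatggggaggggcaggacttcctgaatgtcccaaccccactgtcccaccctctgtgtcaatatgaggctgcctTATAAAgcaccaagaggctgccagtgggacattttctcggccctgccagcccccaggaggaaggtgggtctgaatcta
S100A14: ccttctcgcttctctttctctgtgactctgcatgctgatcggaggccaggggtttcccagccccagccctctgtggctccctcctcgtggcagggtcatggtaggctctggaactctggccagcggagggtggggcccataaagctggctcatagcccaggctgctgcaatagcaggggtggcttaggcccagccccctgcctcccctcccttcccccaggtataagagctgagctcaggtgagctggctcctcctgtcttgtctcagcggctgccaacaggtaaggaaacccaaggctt
S100A10: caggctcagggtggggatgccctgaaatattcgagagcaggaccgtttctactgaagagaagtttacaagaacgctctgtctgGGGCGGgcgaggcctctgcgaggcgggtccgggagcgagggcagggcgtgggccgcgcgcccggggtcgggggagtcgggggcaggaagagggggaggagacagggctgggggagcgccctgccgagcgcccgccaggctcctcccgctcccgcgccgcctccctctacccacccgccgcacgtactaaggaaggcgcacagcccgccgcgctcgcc

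S100P had 1 TATA box, which begins 28 bases before the start, and S100A10 had 1 GC box at 167 bases before it, in a promoter of 71.7% G and C. The S100A14 promoter (62.0% G and C) held no exact match to any of these motifs, and variants of their letters were not searched. All 10 members matched the table, with 14 promoters in all, and a TATA box was found for 3 genes (S100P, S100A4 and S100A13). A GC box was found for 6 and an AP-1 match for 2, S100A2 and S100A3. Counted by promoter, a TATA box was in 3 of 14, a GC box in 6 and an AP-1 match in 2. Of all 35116 promoters of this length, 11.5% held the TATA box, 45.0% the GC box and 7.71% the AP-1 motif. A match is a description of letters and shows no binding.

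Of the 10 members, 9 lie on chromosome 1 and S100P on chromosome 4. Along chromosome 1, the first S100 genes are S100A10 and S100A11, both in the brightest tier. They are followed by S100A9, S100A12, S100A8, S100A7A and S100A7, none of which is a member. S100A8 and S100A9, which together form calprotectin of neutrophils and monocytes, read at most 5.01 and 2.70 on any array, below the floor. S100A12, also of neutrophils, read 3.96 with ORF, 5.31 with shRNA and 1.57 with control, and S100A7 (psoriasin, of inflamed skin) at most 2.96. S100A7A was above the floor at 6.54, 6.91 and 6.62 by its brighter probe set, while its other probe set was below 4 on each array.

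The second block starts with S100A6 and ends with S100A1. Within it S100A5 lies between S100A6 and S100A4 and read 4.31 with ORF, 2.49 with shRNA and 3.84 with control, below the floor between its bright neighbours. S100A5 and S100A4 overlap in RefSeq on the same strand. S100A1, a member of heart and skeletal muscle, overlaps S100A13 on the opposite strand and read 6.17 with ORF, 4.0 with shRNA and 4.06 with control, so it passed the floor on the array labelled ORF only. S100B (of glia and melanocytes), S100G and S100Z, on other chromosomes, were below the floor on each array. Of the 10 S100 genes outside the list, 2 were thus above the floor on any array.

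**Figure D4:**
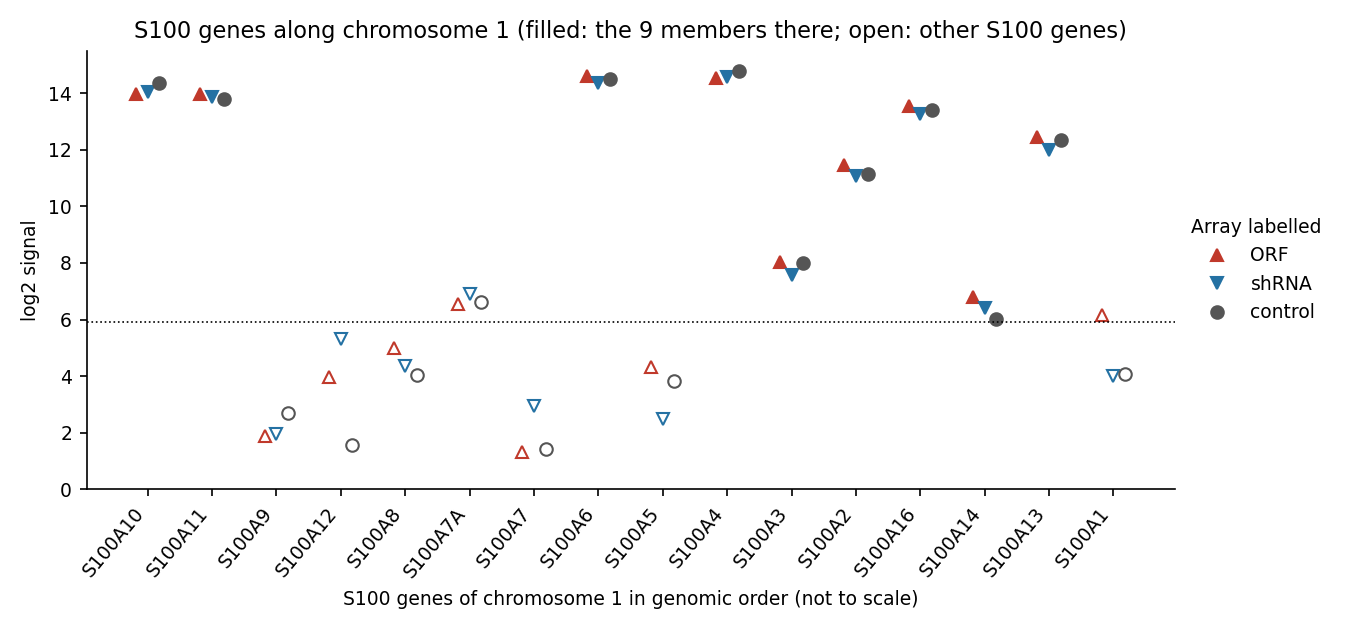
Log2 signal (vertical axis) of the brightest probe set of the 16 S100 genes of chromosome 1 in genomic order (horizontal axis, not to scale) on the arrays labelled ORF (red), shRNA (blue) and control (grey). Filled points are members and open points other S100 genes; the run from S100A9 to S100A7 lies near or below the floor of 5.93 (dotted), and S100A5 lies below it between S100A6 and S100A4.

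Among the proteins that S100 members bind, annexins were bright. Of 11 annexins on the array, 10 were measured and 8 had a mean at or above the 75th percentile. ANXA2, which pairs with S100A10, read 14.20 with ORF, 14.26 with shRNA and 14.45 with control. It was lower by ratio in both comparisons with control, at -0.25 and -0.19, and its 3 bright probe sets gave from -0.26 to -0.24 and from -0.23 to -0.19. All 3 are _x_at probe sets, and whether they also read other transcripts was not tested. The remaining, far dimmer probe set of ANXA2 gave 0.19 and 0.35, below its noise SDs of 0.40 and 0.42. After loess centring the ratios of ANXA2 were -0.16 and -0.09, the second below its noise SD of 0.12. ANXA1, a partner of S100A11, read 14.04, 14.14 and 14.18.

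Of the 10 measured annexins, 1 was called lower and 0 higher for ORF against control, and likewise for shRNA against control. That gene was ANXA9 in both cases, with log2 signals of 6.50, 6.33 and 7.14 and ratios of -0.64 and -0.81. Its other probe set read 6.30 with ORF, 5.38 with shRNA and 5.54 with control, with a ratio of ORF to control of 0.38, so the probe sets disagreed in sign. ANXA7 was not called by its brightest probe set, with ratios of -0.05 (ORF) and 0.08 (shRNA) to control. Another bright probe set of ANXA7 gave 0.42 and 0.64 (noise SDs 0.10 and 0.14), the latter 1.56-fold higher. A probe set of ANXA11 near the floor gave -0.59 for ORF against control (noise SD 0.40), where its brightest gave -0.05. For ORF against shRNA, ANXA10 was called higher (0.70) and ANXA6 lower (-0.68). Over the 3 comparisons, between 2.64% and 3.59% of all measured genes were called in a direction. These shares apply to the lists below too, whose counts are too small to set beside them. The medians of the annexins were -0.10 for ORF against control, -0.02 for shRNA against control and -0.08 for ORF against shRNA.

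The 6 receptors of secreted S100 proteins were all measured and none was called in any comparison. Their medians were -0.04, 0.04 and 0.04 (ORF against control, shRNA against control, ORF against shRNA). ALCAM, a cell adhesion receptor, read 13.18 with ORF, 13.03 with shRNA and 13.32 with control, and NPTN (neuroplastin) 12.71, 12.89 and 12.78. AGER and TLR4 stayed near the floor, with the highest reading of any of their probe sets at 6.10 and 6.26.

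Of 17 measured intracellular partners, 1 was called higher for ORF against control and for ORF against shRNA, and 0 for shRNA against control; none was called lower. This was IL1A, interleukin 1 alpha, a cargo of S100A13, which read 6.72 with ORF, 5.85 with shRNA and 5.18 with control; the floor sets the size of its ratio of 0.80. Its other probe set read 6.50, 6.40 and 3.47, with a ratio of 0.57 for ORF against control but 0.10 for ORF against shRNA. CACYBP, the S100A6 partner, read 13.46, 13.63 and 13.45, and IQGAP1, a scaffold that binds S100P, 12.78, 12.69 and 12.78. The medians of the partners were 0.08, 0.04 and -0.06.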

How the data were processed

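RNA of 3 cultures, 1 per group, was measured on 1 array each, and the log2 signals of 54675 probe sets were used as deposited. The submitters' processing notes name MAS5; the sources used here give neither its version nor any detection calls. That the authors' values are log2 was read from the values, whose linear 2% trimmed means are equal. Of the probe sets, 41097 had 1 gene symbol, 1801 several and 11777 none; 41043 of the first matched RefSeq by gene ID. Arrays were scaled to 1 trimmed mean, signals below the pooled median were set to it, and log2 ratios were taken. The brightest probe set represents a gene. A noise SD came from 5483 pairs of probe sets of 1 gene whose mean log2 signals differed by less than 1, in 20 bins. Differences in log2 ratio within a pair were scaled down to the spread of a single probe set.

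With 1 array per group no test or p-value can be given, and so few arrays limit the precision. The members and lists were chosen with earlier results of these data known. Members are all named; of each other list, the 2 brightest measured genes and up to 4 past 1.5-fold per comparison are named, and all other S100 genes. Gene lists were other S100 genes, S100-fused proteins, annexins, receptors, intracellular partners, small EF-hand proteins and epidermal differentiation genes. AGER, TLR4, ANXA7, ANXA11 and the marker genes are given beside these. The procedure was tested on simulated data. Alternatives were quantile normalization, loess centring (span 0.3), equal medians, another floor (none, or the 75th percentile), the median of a gene's probe sets, leaving out _x_at and _s_at probe sets, and other thresholds (log2 of 0.32, and 2-fold). Alternatives for ranks among the brightest genes and for the order of the arrays were added after seeing the data. Python 3.11.15, numpy 2.4.6, pandas 2.3.3, scipy 1.17.1 and statsmodels 0.14.6 were used.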

Additional observations from a re-analysis of the deposited data

How the results depend on the processing

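No paired analysis was possible because each group had 1 array, and no array could be left out. The counts of members past 1.5-fold (1 for ORF against control, 1 for shRNA against control and 0 for ORF against shRNA) were the same under both other scalings, loess centring, no floor, the median over probe sets and without _x_at and _s_at probe sets, which left out S100A4. With a floor at the 75th percentile the count for ORF against control was 0, since S100A14 lies below it. At a lower log2 threshold of 0.32 the counts were 3 (2 higher, 1 lower), 5 (1 higher, 4 lower) and 5 (5 higher, 0 lower). Of all measured genes, 9.67% were higher and 9.28% lower at that threshold for ORF against control, 11.4% each for shRNA against control, and 9.82% and 9.54% for ORF against shRNA. At 2-fold 0 members were called in each comparison, where between 0.292% and 0.671% of measured genes were called in a direction. The median for ORF against shRNA of 0.34 ranged from 0.32 to 0.39 under the other alternatives apart from 0.28 with the median over probe sets and 0.17 with the higher floor. The medians ranged from 0.05 to 0.17 for ORF against control and from -0.17 to -0.08 for shRNA against control. With the median over probe sets, S100A13 turned to -0.14 for ORF against control and was 0.10 for ORF against shRNA. The count of 8 members with a mean at or above the 75th percentile was the same under quantile normalization and equal medians. Other scalings shifted the median of all genes by between -0.02 and 0.01. Among the brightest genes, limits and scalings chosen after seeing the data left S100A10 the lowest of 199 genes for ORF against control with a limit of 14, the 18th lowest of 1652 with a limit of 12, and the 4th lowest of 690 after quantile normalization. Signals near the floor limit what can be said of S100A14, whose noise SDs are 0.40 to 0.43.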

Other observations

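Other small EF-hand calcium sensors, which share the loop of the S100 proteins but not their dimer fold, had ratios on both sides of 0, from -0.47 to 0.52 for ORF against control, from -0.25 to 0.53 for shRNA against control and from -0.63 to 0.20 for ORF against shRNA. Of 17 on the array, 13 were measured. None was called in either comparison with control, and 1 was called lower for ORF against shRNA. That gene was CALML4, a calmodulin-like protein, which read 8.44 with ORF, 9.07 with shRNA and 8.91 with control (log2 ratio of ORF to shRNA -0.63). Its other probe sets above the floor gave -0.25 and -0.04, neither past the threshold. The brightest were SRI (sorcin), with 13.68, 13.60 and 13.77, and CHP1, with 13.41, 13.27 and 13.23. The medians were -0.01 for ORF against control, 0.04 for shRNA against control and 0.00 for ORF against shRNA.

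The skin differentiation genes that neighbour the S100 cluster were near or below the floor. Of the 5 S100-fused proteins on the array, such as filaggrin (FLG) and trichohyalin (TCHH), 0 were measured. Of 12 other epidermal differentiation genes, 2 were above the floor on any array. SPRR4, a small proline-rich protein of the cornified envelope, read 6.58 with ORF, 4.05 with shRNA and 5.45 with control, and the floor sets the size of its ratio of 0.65 in both comparisons of ORF. LCE1B read 5.31, 5.04 and 6.17.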
